A study of Mus musculus with 6 samples.

Results

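The genes described here are 37 enzymes of methionine, cysteine and sulfide metabolism, followed in the mouse ovary with and without Selenbp1, the gene of selenium-binding protein 1, which the labels call SeBP1. Members were found by their gene name, or its older synonym, on a whole-genome Agilent oligonucleotide array. Of the 37 members, 36 had a probe under a name of theirs and 33 had a probe that cleared background on every array of 1 genotype or both, against 19435 genes so measured out of 31791 names on the array. The 3 others, Tmt1a, Tmt1b and Bhmt2, had only dim probes under those names, and Amd1 had no probe under its name. Each measured member is represented by its brightest probe, and values are log2 of the processed signal minus the 75th percentile of the same array.

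Ovaries came from female C57BL/6J mice aged 20 weeks, 3 carrying the SeBP1 knockout and 3 wild type. RNA of each sample was labelled with the dye Cy3 and hybridised alone. Which part of the gene was deleted, whether the deletion is limited to any cell type and whether each array is a separate animal are not given in the labels, so p-values cover only the spread between arrays, which may be technical. On all 6 arrays the granulosa cell markers (7 of 7), the oocyte markers (8 of 8) and the theca markers (4 of 4 with a usable probe) were well above background. Of 3 liver markers, Apoa2 and Serpina1a were so on all arrays and Alb on none. Oviduct markers summed to 29.3 times the 75th percentile on wild type replicate 2, against 0.12 to 0.65 in the knockouts and 0.42 to 0.50 on the other wild types, and adipocyte markers to 7.78 on wild type replicate 1, against 1.05 to 1.84 in the knockouts and 1.03 to 1.44 on the other wild types. These are whole ovaries, in which fewer cells of a type and less RNA per cell cannot be told apart.

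Methionine is activated to S-adenosylmethionine, the methyl donor of the cell, and returns through homocysteine, which is either methylated back to methionine or passed by transsulfuration to cysteine. Cysteine and methanethiol are sources of hydrogen sulfide, a toxic and signalling gas that mitochondria oxidise to thiosulfate and sulfate. SELENBP1 is known as a methanethiol oxidase, which turns methanethiol into hydrogen sulfide, hydrogen peroxide and formaldehyde, so its loss removes a step at the entry to the sulfide route.

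The sequences below belong to the members on which the results turn. Bhmt, which remethylates homocysteine with betaine, was the member that differed most between ovaries. The first line is the end of its reading frame as read by the third of its 3 array probes (chr13:94386836-94386840, mm9, minus strand, a span in the files that is shorter than the probe), with the stop codon in capitals. The second is the 250 bases before its transcription start in RefSeq (chr13:93637759-93638008, GRCm38, minus strand), with capitals on the motif CAAGGTCA, known as a binding sequence of the NR5A nuclear receptors of steroid-producing cells.
Bhmt probe 3: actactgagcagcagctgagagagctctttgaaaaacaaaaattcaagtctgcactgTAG
Bhmt promoter: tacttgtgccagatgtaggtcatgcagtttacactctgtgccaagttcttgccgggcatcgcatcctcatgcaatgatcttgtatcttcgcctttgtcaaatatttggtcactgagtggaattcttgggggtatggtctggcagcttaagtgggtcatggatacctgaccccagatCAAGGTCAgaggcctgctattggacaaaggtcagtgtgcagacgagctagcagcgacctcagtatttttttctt

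The motif begins 74 bases before the start of Bhmt. Searched on both strands in windows of 300 bases, from 250 before to 50 after the start, it stood in 512 of 32851 RefSeq promoters (1.56%) and in 2 of the 30 member genes with a promoter in that table, Bhmt and the sulfoxide reductase gene Msrb2. Of the genes set beside Bhmt further on, the promoter of Gamt lacked the motif, and Slc6a6, Star and Scarb1 had no promoter to search. The motif was picked after the values of Bhmt were seen, and a match is a description of the letters only.

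Selenbp1 checks the labels. Its signal was -0.11, 0.02 and -0.37 in the knockout ovaries, against 2.68, 2.53 and 2.59 in wild type. The genotypes lay far apart, with a log2 difference of -2.75 (standard error 0.13, limma, adjusted p = 0.0104), although signal in the knockouts remained well above background on 3 of 3 arrays. With a term for slide it had an adjusted p of 0.0792, and one of 0.0631 to 0.167 on leaving out knockout replicate 1 or 3 or wild type replicate 1 or 2, with differences between -2.78 and -2.64. The probe (chr3:94748621-94748680, mm9) is also assigned in the files to an accession of Selenbp2, a near-identical neighbour, and its place relative to the deletion is unknown.

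None of the 33 measured members differed between genotypes at an adjusted p under 0.05 (limma), where 0.0041% of the 24415 tested probes, the Selenbp1 probe alone, passed. None passed at an unadjusted p under 0.05 either, against 3.95% of all probes, and the smallest unadjusted p among members was 0.153, for Got1. The median log2 difference, knockout minus wild type, was -0.024 over the members and -0.017 over all genes measured. Of the members, 21 had the lower mean in the knockout and 12 the higher one, and 54.3% of all probes had the lower mean in the knockout. Without Bhmt, 28 of 32 members differed by at most 0.25 in either direction, a size that held for 79.3% of all genes. The 95% interval of the difference lay within 1 log2 unit of 0 for 30 of the 33. A p that misses the threshold does not show that genotypes were alike, and those intervals give the sizes that remained possible.

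**Figure D1:**
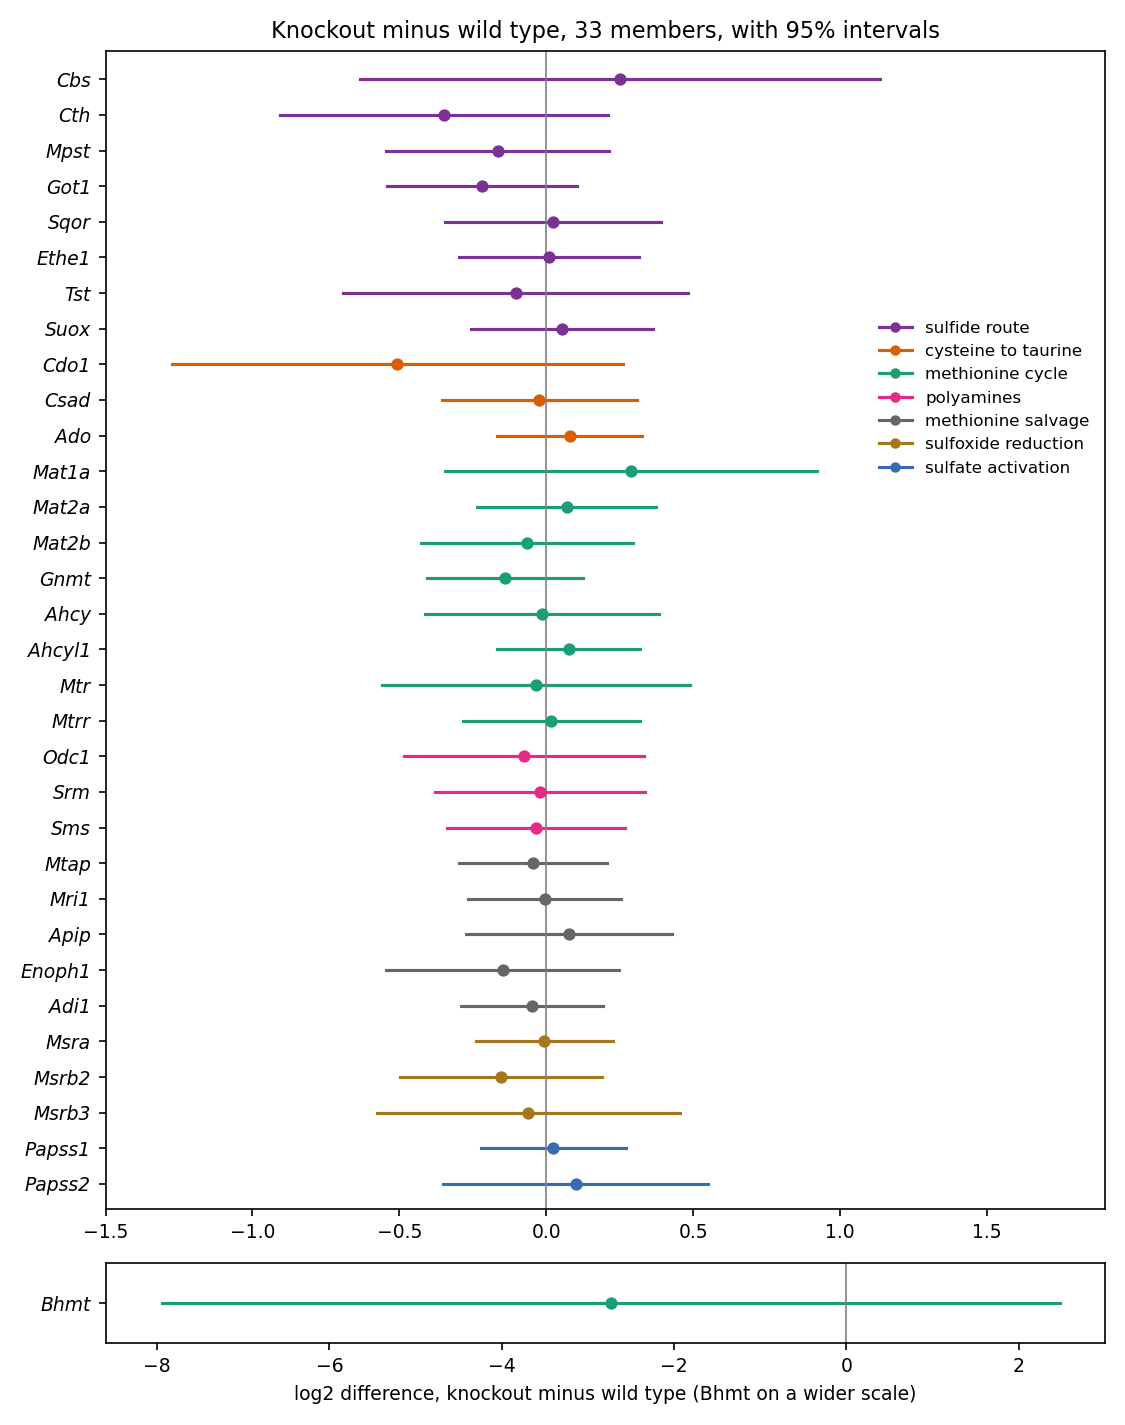
Log2 difference, knockout minus wild type, of the 33 measured members (points) with its 95% interval (lines) from limma on 3 knockout and 3 wild-type arrays, coloured by pathway. Every interval crosses 0, and Bhmt, drawn on a wider scale, has the widest one, -7.94 to 2.48.

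The thiol methyltransferases were dim in both genotypes. TMT1A and TMT1B are known in humans as thiol methyltransferases that convert hydrogen sulfide to methanethiol. Tmt1a, listed as Mettl7a1, had signals of -8.26, -7.91 and -8.74 in the knockouts and -8.39, -8.27 and -7.58 in wild type, and Tmt1b, listed as Mettl7b, had -8.28, -7.96 and -8.03 in the knockouts and -7.65, -7.53 and -7.92 in wild type. Both probes were well above background on 0 of 6 arrays, so they give no fold between genotypes. A further probe, which the files name by an Ensembl transcript of Mettl7a1, was above background and is described with Mettl7a2 further on.

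Sulfide is made in cells by 3 enzymes of this list, Cbs, Cth and Mpst, the last of which takes its substrate from the transaminase Got1. Cbs, which condenses homocysteine with serine, had signals of 2.76, 2.36 and 3.43 in the knockouts, against 2.61, 3.15 and 2.03 in wild type. The highest array was knockout replicate 3 and the lowest wild type replicate 3, with the rest mixed between genotypes. The difference of 0.25 (standard error 0.37, limma, unadjusted p = 0.519) ran from -0.040 (without knockout replicate 3) to 0.53 on leaving out a single array, and was -0.033 without wild type replicate 3. On the slide that held both genotypes, where the only wild type is replicate 3, it was 0.82.

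Cth, which splits cystathionine to cysteine, had signals of -2.42, -1.69 and -2.33 in the knockouts, against -2.03, -1.81 and -1.55 in wild type. Knockout replicates 1 and 3 were below every wild type and knockout replicate 2 was inside their range. The difference was -0.35 (standard error 0.23, limma, unadjusted p = 0.181), a second probe of the gene gave -0.33, and leaving out a single array gave -0.58 (without knockout replicate 2, unadjusted p = 0.018, adjusted p = 0.827) to -0.21 (without knockout replicate 1).

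Mpst, which moves sulfur from mercaptopyruvate, had signals of 2.06, 2.59 and 2.19 in the knockouts, against 2.45, 2.49 and 2.40 in wild type. The wild types lay close together and the knockouts fell on both sides of them (difference -0.16, standard error 0.16). Leaving out a single array gave -0.32 (without knockout replicate 2, unadjusted p = 0.032, adjusted p = 0.841) to -0.054 (without knockout replicate 1). Got1, which makes mercaptopyruvate from cysteine besides its work on aspartate, had 2.70, 2.39 and 2.49 in the knockouts and 2.79, 2.58 and 2.87 in wild type, overlapping at a single pair of arrays (difference -0.22, standard error 0.13).

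Sulfide is removed by mitochondrial oxidation. Sqor, listed as Sqrdl, takes the first step as sulfide quinone oxidoreductase, and its signal was 1.46, 1.51 and 1.09 in the knockouts and 1.41, 1.40 and 1.17 in wild type. In both genotypes the third replicate was the lowest, and the difference was 0.02 (standard error 0.15, 95% interval -0.34 to 0.39). Ethe1, the persulfide dioxygenase that follows, had 0.26, 0.30 and 0.53 in the knockouts and 0.41, 0.20 and 0.44 in wild type (difference 0.01, interval -0.30 to 0.31), with arrays of the genotypes interleaved.

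Tst, the thiosulfate sulfurtransferase also called rhodanese, had 3.24, 2.61 and 3.07 in the knockouts and 2.93, 2.80 and 3.50 in wild type, again interleaved (difference -0.10, interval -0.69 to 0.48). A second Tst probe gave -0.19, and leaving out a single array gave -0.25 to 0.11. Suox, the sulfite oxidase that ends the route in sulfate, had 0.82, 1.15 and 0.85 in the knockouts and 0.97, 0.89 and 0.81 in wild type, knockout replicate 2 being the highest (difference 0.05, interval -0.26 to 0.36).

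**Figure D2:**
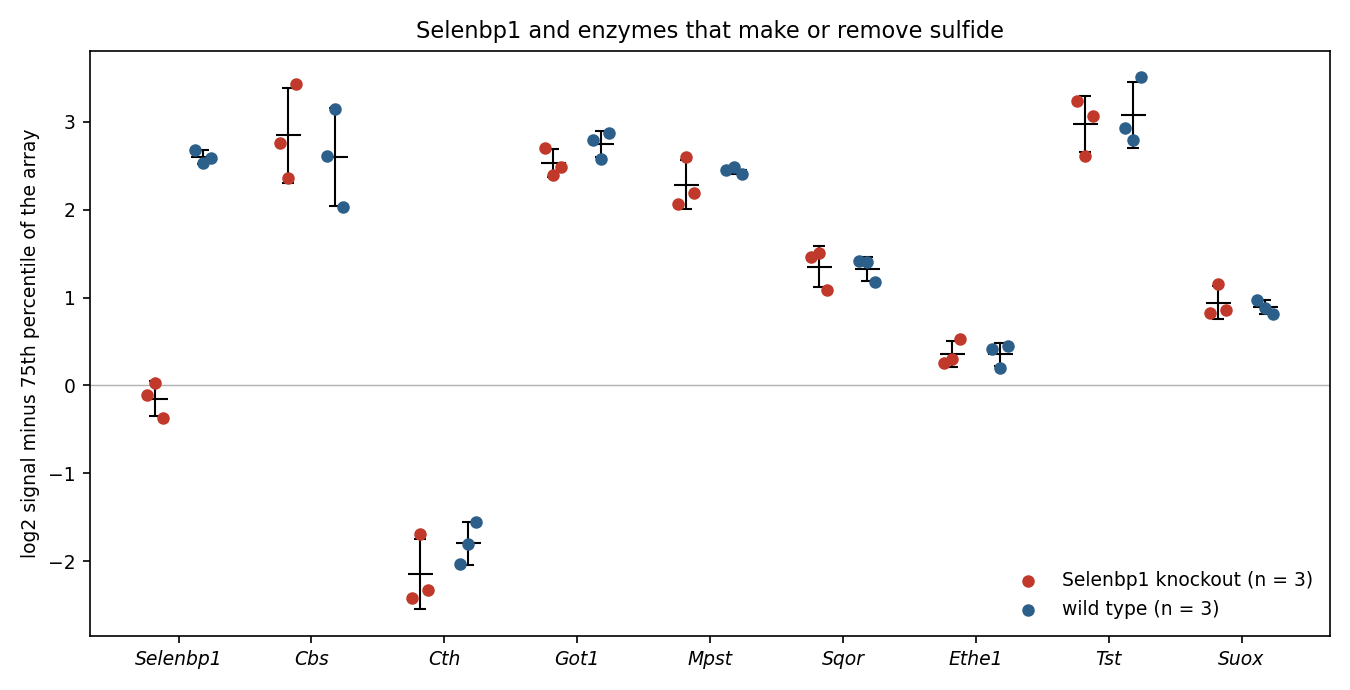
Signal on each array (points), in log2 units above or below the 75th percentile of the array, of Selenbp1 and 8 enzymes that make or remove sulfide, with knockouts left and wild types right, and mean ± SD (n = 3) as bars. Only Selenbp1 separates widely, with knockouts at -0.37 to 0.02 and wild types at 2.53 to 2.68.

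Cysteine can also be oxidised away from sulfide, to taurine. Cdo1, cysteine dioxygenase, had -1.77, -1.03 and -1.80 in the knockouts, against -0.73, -0.74 and -1.61 in wild type, and wild type replicate 3 lay among the knockouts. Its difference of -0.51 (standard error 0.32, limma, unadjusted p = 0.159) was -0.80 (without wild type replicate 3, unadjusted p = 0.027) to -0.36 (without wild type replicate 1) on leaving out a single array, and 0.075 on the shared slide. With arrays weighted by their quality it was -0.85 (unadjusted p = 0.0082, adjusted p = 0.396), the smallest adjusted p of any member under any setting tried. Csad, which decarboxylates cysteine sulfinate, differed by -0.024 (standard error 0.14), and Ado, which oxidises cysteamine to hypotaurine, by 0.079 on its brightest probe and -0.17 on the other.

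In the methionine cycle, the genotypes did not overlap for Gnmt alone among all members, 1 of 33 (3.03%), where 8.66% of all probes with a value on every array did not overlap. Gnmt, glycine N-methyltransferase, which uses up S-adenosylmethionine and is best known from liver, had -3.79, -3.87 and -3.81 in the knockouts and -3.74, -3.53 and -3.78 in wild type. The gap between the nearest arrays of the genotypes was narrow, and the difference was -0.14 (standard error 0.11, limma, unadjusted p = 0.248).

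The methionine adenosyltransferase Mat2a, the form used outside liver, averaged 3.58 ± 0.19 in the knockouts and 3.51 ± 0.03 in wild type (SD, n = 3 each), and its regulatory subunit Mat2b 2.92 ± 0.08 in the knockouts and 2.98 ± 0.25 in wild type. The liver form, Mat1a, was dim, well above background on 3 knockout and 2 wild-type arrays, with a difference of 0.29 (standard error 0.26). Leaving out wild type replicate 3 gave 0.061, leaving out knockout replicate 1 gave 0.078, and leaving out any other array gave up to 0.43. It was 0.74 with a term for slide (unadjusted p = 0.046, adjusted p = 0.501). Ahcy, which splits S-adenosylhomocysteine, and its relative Ahcyl1 differed by -0.015 and 0.076 on their brightest probes. Their other probes gave -0.11 and 0.013 for Ahcy and -0.035 for Ahcyl1. Methionine synthase Mtr and its reductase Mtrr, the folate-dependent way back to methionine, differed by -0.036 and 0.017. With all 6 arrays and no term for slide, each of these had an unadjusted p above 0.05 (limma).

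Bhmt, the betaine-dependent way back to methionine, had signals of 1.80, -2.57 and -3.13 in the knockouts, against -2.63, 1.84 and 5.08 in wild type. Knockout replicate 1 and wild type replicates 2 and 3 were high and the remaining arrays low, so the arrays did not sort by genotype. In intensity units these were 5716, 251 and 189 in the knockouts and 283, 5676 and 44149 in wild type. The highest normalised value was 295-fold the lowest. All 3 Bhmt probes showed this, at 310-fold, 295-fold and 271-fold, and they held ranks 4, 5 and 6 of 24415 probes for the spread over the 6 arrays. Bhmt was singled out after its values were seen.

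The genotype difference of Bhmt, -2.73, had a standard error of 2.16 and an interval of -7.94 to 2.48 (limma, unadjusted p = 0.251). It was -0.91 without wild type replicate 3, -4.76 without wild type replicate 1 (unadjusted p = 0.038) and -6.38 on the shared slide (unadjusted p = 0.033, adjusted p = 0.706). The neighbouring gene Bhmt2, a homologue that uses S-methylmethionine, was well above background on 0 knockout arrays and 1 wild-type array.

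Among genes outside the members, several were highest on the same arrays as Bhmt, and those given here were chosen after their values were seen. Gamt, which makes creatine with S-adenosylmethionine, had 3.51, 2.59 and 2.67 in the knockouts and 2.90, 2.99 and 4.35 in wild type. The taurine transporter gene Slc6a6 had 2.23, 1.20 and 1.39 in the knockouts and 1.56, 1.69 and 2.83 in wild type. Of the steroidogenic genes, Star, which moves cholesterol into mitochondria, had 2.64, 1.33 and 1.96 in the knockouts and 1.43, 2.38 and 3.50 in wild type. Scarb1, the receptor for high-density lipoprotein, had 4.21, 3.05 and 3.82 in the knockouts and 3.80, 3.89 and 4.81 in wild type. In these 4 genes wild type replicate 3 was the highest array and knockout replicate 1 the next, and each spread far less than Bhmt. Across all kept probes, the deviations of these 2 arrays from their genotype means correlated at 0.36, the highest of any knockout and wild type pair. The share of all probes with this order of arrays was not counted, so the order is not shown to be particular to these genes.

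Other steroidogenic genes, also named after their values were seen, were mixed in that order. Cyp11a1 shared it, with 6.23, 3.93 and 5.98 in the knockouts and 5.89, 5.92 and 6.62 in wild type. Cyp17a1 and Cyp19a1 did not. Cyp17a1, which makes androgens, had 4.25, 3.31 and 4.01 in the knockouts and 4.19, 3.08 and 2.39 in wild type. Cyp19a1, aromatase, had 2.52, 2.28 and 4.23 in the knockouts and 4.37, 2.99 and 1.44 in wild type, so wild type replicate 3 was the lowest array for both. The liver marker Serpina1a had -2.79, -4.12 and -4.07 in the knockouts and -4.32, -1.74 and -3.50 in wild type, highest on the arrays where Bhmt was high. The 3 liver markers summed to 1.39 to 1.62 times the 75th percentile in the knockouts and 1.36 to 1.63 in wild type. Most of that sum is Apoa2, with log2 signals of 0.41 to 0.55 in the knockouts and 0.35 to 0.50 in wild type. The sum therefore cannot show the spread of Serpina1a.

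**Figure D3:**
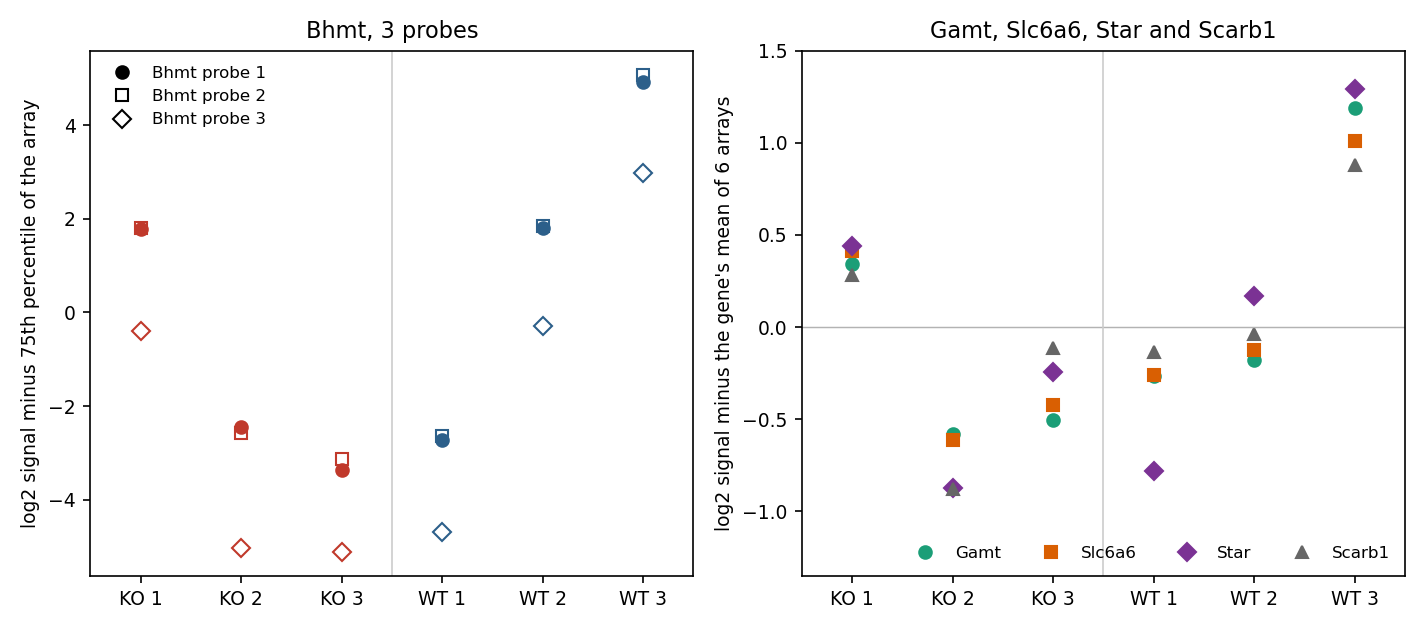
Left, the signal of the 3 Bhmt probes on each array in log2 units relative to the 75th percentile, with knockouts (KO) left of wild types (WT). Right, Gamt, Slc6a6, Star and Scarb1 on the same arrays, each minus its own mean over the 6 arrays; KO 1 and WT 3 are the highest arrays for these genes, as wild type replicate 3 is for Bhmt at 5.08.

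The corpus luteum list had 5 of 6 genes measured, all well above background on all arrays, and summed to 11.6 to 47.4 times the 75th percentile in the knockouts and 26.0 to 48.5 in wild type. Since Scarb1 is among them and was given above for following Bhmt, the sum was also taken, a choice made after seeing the data, over the other 4 (Lhcgr, Ptgfr, Prlr and Akr1c18). It was 28.9, 3.30 and 24.1 in the knockouts, against 16.8, 11.1 and 20.4 in wild type. Knockout replicate 2 was lowest by far, and knockout replicates 1 and 3 were above every wild type. The sum is on a linear scale. On knockout replicate 3 Akr1c18, at 3.76, was the brightest of the 4 genes, so the place of that array rests largely on this gene. Among these genes Akr1c18, which inactivates progesterone, had 2.95, -1.65 and 3.76 in the knockouts and 2.65, 0.59 and -2.23 in wild type, lowest on the array where Bhmt was highest. Lhcgr had 0.53, -2.77 and -0.047 in the knockouts and 0.21, -0.26 and 1.44 in wild type. Prlr had 3.74, 1.40 and 2.83 in the knockouts and 2.97, 2.74 and 3.81 in wild type. Both were highest on wild type replicate 3 and next on knockout replicate 1. Ptgfr had 2.65, -2.42 and 1.34 in the knockouts and 0.63, 1.06 and 1.80 in wild type, highest on knockout replicate 1 and next on wild type replicate 3. The part of cell composition, liver-like signal included, in the Bhmt values was not tested.

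Apart from Bhmt, the spread of the members lay near that of all genes. The median range over the 6 arrays, highest minus lowest log2 signal, was 0.43 over the members and 0.52 over all genes. A range above 1 occurred in 4 of 33 members, Bhmt, Cbs, Mat1a and Cdo1, and in 17.7% of all probes. Knockout replicate 2 was the highest array for 10 members and the lowest for 6, knockout replicate 3 the highest for 3 and the lowest for 9, and wild type replicate 3 the highest for 9 and the lowest for another 9. Over all probes, knockout replicate 2 was highest for 22.9% and lowest for 21.4%, and knockout replicate 3 highest for 15.7% and lowest for 16.3%. For wild type replicate 3 these shares were 21.5% and 24.9%.

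**Figure D4:**
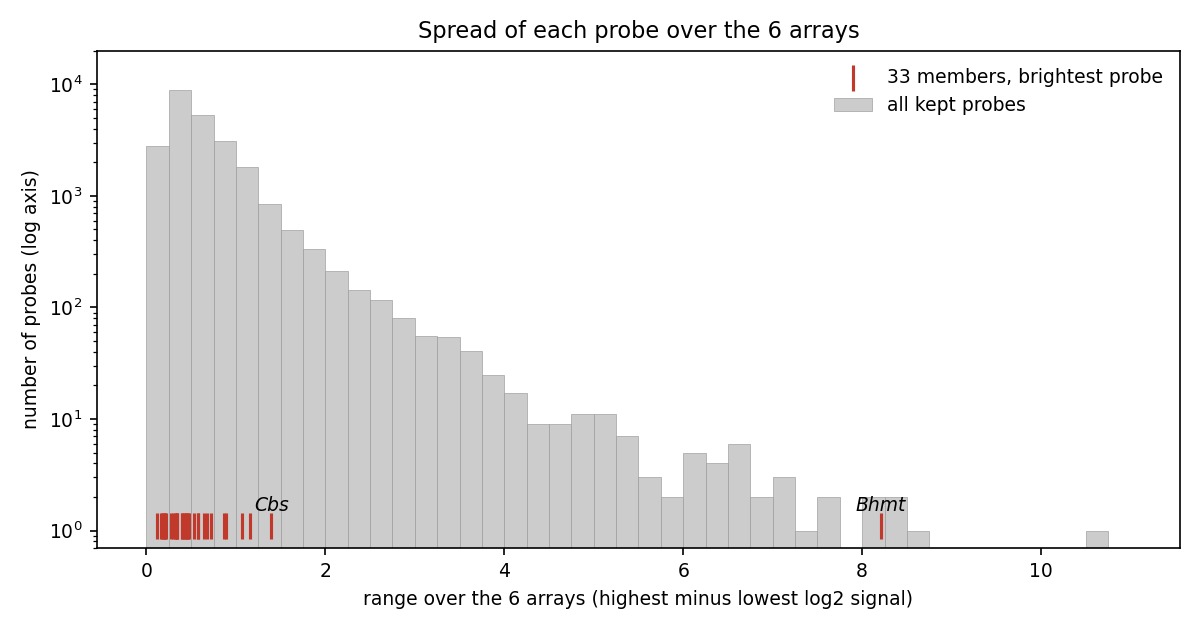
Number of probes (grey bars, log axis) by the range of their log2 signal over the 6 arrays, with the brightest probe of each of the 33 measured members as a red tick. Bhmt, at 8.21, stands among the widest probes, and the next member, Cbs, is at 1.40.

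S-adenosylmethionine also feeds the polyamines, and the methionine salvage pathway recovers methionine from the methylthioadenosine left by their synthesis. Ornithine decarboxylase Odc1, which starts polyamine synthesis, differed by -0.076 on its brightest probe and by 0.11 and 0.15 on the others. Spermidine synthase Srm differed by -0.022 and spermine synthase Sms by -0.036. Of the 5 salvage enzymes, 4 had the lower mean in the knockout, with differences from -0.15 for Enoph1 to -0.006 for Mri1. Apip was at 0.077 on its brightest probe and -0.10 on the other. Mtap, which opens the pathway by cleaving methylthioadenosine, averaged -0.96 ± 0.11 in the knockouts and -0.91 ± 0.03 in wild type (SD, n = 3 each), and Adi1, which makes the ketoacid of methionine, differed by -0.050.

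Amd1, S-adenosylmethionine decarboxylase, could be read only through probes of Amd2, a near-identical copy, of which some also carry an accession of Amd1, so the source of their signal is uncertain. The brightest Amd2 probe had 2.32, 2.36 and 2.23 in the knockouts and 2.54, 2.48 and 2.56 in wild type, with no overlap (difference -0.22, standard error 0.10, limma, unadjusted p = 0.058). The other probes of the gene gave -0.007 and 0.056, so the lower value was not shared between probes. These probes were looked at after their values were seen.

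Methionine sulfoxide reductases repair oxidised methionine. Msra, which acts on the S form of the sulfoxide, differed by -0.008, with the narrowest interval of the members, -0.24 to 0.23. Msrb2, the mitochondrial enzyme for the R form, averaged 2.08 ± 0.17 in the knockouts and 2.24 ± 0.17 in wild type (SD, n = 3 each; difference -0.15), and Msrb3 differed by -0.062. Papss1 and Papss2, which turn sulfate into the active donor for sulfation, differed by 0.024 and 0.099, below their standard errors of 0.10 and 0.19. None of these genes had an unadjusted p under 0.05 (limma).

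A close relative of Tmt1a and a transcript of its locus had probes above background, and are given because the probe under the member's own name was dim. They too were chosen after their values were seen. A probe of Mettl7a2, a neighbour of Mettl7a1 on chromosome 15, had 3.92, 4.50 and 4.21 in the knockouts, against 3.07, 3.06 and 4.01 in wild type. Knockouts were higher than wild type replicates 1 and 2 but knockout replicate 1 was below wild type replicate 3, and the difference was 0.83 (standard error 0.30, limma, unadjusted p = 0.030, adjusted p = 1.00). On the shared slide it was 0.19 and without wild type replicate 3 it was 1.14 (adjusted p = 0.262).

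The probe for a Mettl7a1 transcript that the files name by its Ensembl identifier was well above background on all 6 arrays, though low in signal, and had -5.67, -5.22 and -5.24 in the knockouts and -4.71, -4.95 and -4.40 in wild type, with no overlap (difference -0.69, standard error 0.19, limma, unadjusted p = 0.011, adjusted p = 1.00). It was -0.37 with normexp background correction and -0.97 on the shared slide. The Mettl7a2 and Mettl7a1 probes thus differed in sign. The first 30 bases of the Mettl7a2 probe (chr15:100192018-100192077 for the whole probe, mm9, plus strand) are shown because they hold a run of 13 bases, in capitals, shared with other probes. On either strand, that run stands in 10 of 39429 probes of the array, the Mettl7a2 probe included.
Mettl7a2 probe: gttccaggaccgCCAGGGCTACACAaataa

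Whether other transcripts bind that probe was not tested.

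Around the members, a list of 60 further genes covered glutathione, cystine and taurine transport, folate and methyl supply, small-molecule methyltransferases, polyamine turnover and sulfation. Of these, 50 were measured, and 0 passed the adjusted threshold (limma). By their means 34 were lower and 16 higher in the knockout, where 54.3% of all probes were lower. The median difference was -0.075, against -0.017 over all genes measured. At an unadjusted p under 0.05 there were 3 of 50 (6%, against 3.95% of all probes), and 3 of 50 (6%) had genotypes that did not overlap, against 8.66%. Those with the smallest p were Sult2b1, which sulfates cholesterol, at 0.44 (unadjusted p = 0.042), Chac2, which degrades glutathione, at -0.36 (unadjusted p = 0.044), and Sts, which removes sulfate from steroids, at 0.31 (unadjusted p = 0.049), all from limma with an adjusted p of 1.00.

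Sts had 0.80, 0.98 and 0.94 in the knockouts and 0.51, 0.50 and 0.79 in wild type, the closest pair of arrays nearly touching. Slc1a1, a glutamate transporter that also carries cysteine, had a difference of -1.25 (standard error 0.57, limma, unadjusted p = 0.067) and was low on wild type replicate 3 as well, with -5.67, -5.18 and -5.92 in the knockouts and -4.52, -3.10 and -5.41 in wild type. Inmt, an N-methyltransferase, followed at -0.81 (unadjusted p = 0.098), also with wild type replicate 3, at -3.31, lying among the knockouts. Both were highest on wild type replicate 2, the array with high oviduct markers, whose part in these differences was not tested.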

How the data were processed

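Each sample was a single-colour array, and the scanner files hold spot intensity from Agilent Feature Extraction 10.7.1.1 with coordinates on mm9, per the file headers. The deposited intensity was already background-subtracted, with low values replaced by surrogates, per the file headers. Between 61.6% and 69.3% of 43020 spots were well above background, and the number of arrays limits the precision. Spots flagged as outliers (192 to 459 per array) were dropped, spots of a probe averaged, log2 values scaled to each array's 75th percentile, and probes kept where well above background on 3 arrays of 1 genotype. Genotypes were compared with limma 3.58.1 in R 4.3.3 (lmFit, eBayes, two-sided), adjusted by Benjamini-Hochberg over 24415 probes and tested on simulated data. Slide 1 held wild type replicates 1 and 2, slide 2 the other arrays. The deposited series table, also intensity, with the same median of 119.8 on every array, was an alternative. Its log2 values had a slope of 0.982 to 1.01 on the log2 scanner signal of the same array, that of a linear scale with no centring by gene; its making is not stated by labels or headers. The members, lists and tests were chosen with earlier results of these data known. All members could be named, with every array given for Selenbp1, the sulfide route and any member with an unadjusted p under 0.05 or no overlap, and up to 8 other pathway genes by smallest p; genes beyond that are marked in the text. Python 3.11.15 (pandas 2.3.3, matplotlib 3.10.9, numpy 2.4.6) served for tables and plots.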

Additional observations from a re-analysis of the deposited data

How the results depend on the processing

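No member passed an adjusted p of 0.05 under any of the 18 alternatives, and the members' median difference stayed between -0.052 and 0.012. Of the 33 members, 24 changed the sign of an uncalled difference under at least 1 alternative and 9 did not. Probes called, 1 with the settings used, were 0 with no filter on dim probes, with slide as a fixed block and on the shared slide, and 0 to 19 on leaving out a replicate, 19 being without wild type replicate 3. Selenbp1 stayed at -2.75 with no filter (adjusted p = 0.0824), and was -2.74 with slide as a fixed block (adjusted p = 0.0792) and on the shared slide (adjusted p = 0.348), and -2.84 to -2.64 on leaving out a replicate, where adjusted p rose to 0.141 without knockout replicate 1, 0.0631 without knockout replicate 3, 0.167 without wild type replicate 1 and 0.144 when wild type replicate 2 was left out. Members without overlap, 1 with the settings used, were 2 with normexp background correction, quantile normalization, the deposited series table and no filter. Under those settings 8.53% to 9.37% of all probes did not overlap. There were 19 such members on the shared slide, where a single wild type is compared (54.97% of all probes), and 2 to 7 on leaving out a replicate. The shared slide and the left-out replicates leave fewer arrays to overlap, among all probes too. The share over all probes is not given here for the left-out replicates, so 2 to 7 is no result about the members. With the replicate number as a block, 0 probes were called and Selenbp1 was -2.75 (adjusted p = 0.557). Same-numbered arrays deviated from their genotype means with correlations of -0.33, 0.30 and -0.03 across probes. The replicate numbers are not all those of the sample titles, so these correlations cannot tell whether samples were paired. The cause of these changes was not tested otherwise.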
